A study of Mus musculus with 8 samples.

Results

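The response of control macrophages to lipopolysaccharide (LPS) was described across genes from 4 of the 8 arrays of a study of the endocytic adaptor Dab2: the 2 arrays of shLuc cells treated with LPS for 6 h, set against the 2 arrays of shLuc cells given PBS. The arrays were assigned to groups by their labels, and all 21876 probes with a gene symbol, of 26423 on the array, entered the description. The cells were RAW264.7, a mouse macrophage-like line, carrying a stable, lentiviral shRNA against luciferase (shLuc), a gene that mouse cells lack. LPS was given at 100 ng/ml, and the untreated arrays (shLuc CTL) received PBS. The other 4 arrays held a line with an shRNA against Dab2 (shDab2) under the same treatments. They shared the normalization and the estimate of the spread, and the lines were compared only near the end. All 8 arrays thus came from transduced, selected lines of the same parent, and nothing in the labels or methods said whether the 2 arrays of a group came from separate cultures, so that p-values measured only the spread between these arrays.

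LPS of Gram-negative bacteria is bound by CD14 and by the TLR4 and MD-2 receptor pair on macrophages. At the plasma membrane the adaptors TIRAP and MyD88 lead to the IkB kinases, NF-kB and the MAP kinases, which turn on cytokine, chemokine and early transcription factor genes. After endocytosis the adaptors TRAM and TRIF lead to TBK1 and IRF3, the interferon-beta gene and, through secreted interferon, the interferon-stimulated genes. The same stimulus is known for halting the division of macrophages and for changing their metabolism toward glycolysis and itaconate.

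Intensities were background-subtracted by the submitters, then quantile-normalized over the 8 arrays and analysed as log2 of intensity plus 50. On each array 42.1 to 42.3% of probes then had an intensity of at least 50, the level below which a probe was treated as dim. The log2 values of replicate arrays correlated at 0.9949 with LPS and at 0.9963 with PBS across probes, which are not independent replicates. Among genes reaching 200 in either array of a group, 31 of 6482 with LPS and 13 of 6499 with PBS still differed by more than 1 on the log2 scale between their 2 arrays, and of these Ak3, Psmb9 and H13 alone passed the test. The number of arrays limits the precision of every value here. In the text a gene rose or fell where limma gave it an adjusted p under 0.05 (Benjamini-Hochberg over all 26423 probes), each gene being represented by its brightest probe.

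LPS changed a broad set of genes in shLuc cells. Of 19084 genes, 2205 (11.6%) rose and 2995 (15.7%) fell. With a change past 1 on the log2 scale, 352 (1.84%) rose and 214 (1.12%) fell. Rises reached further than falls: 94 genes rose and 14 fell by more than 2, while 30 rose and 0 fell by more than 3. The balance of rises and falls depended on the scaling. With a common 75th percentile 2750 genes were higher and 2431 lower with LPS, and without normalization 1312 were higher and 4463 lower. Past 1 there were 393 higher and 185 lower with a common 75th percentile, but 244 higher and 409 lower without normalization. The genes that rose past 1 had a median intensity of 882 with LPS against 223 with PBS, and 59 of them were dim with PBS. The genes that fell past 1 had a median of 264 with LPS against 722 with PBS, and 15 were dim with LPS. In a culture measured as a whole, fewer expressing cells and less RNA per cell cannot be told apart.

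**Figure D1:**
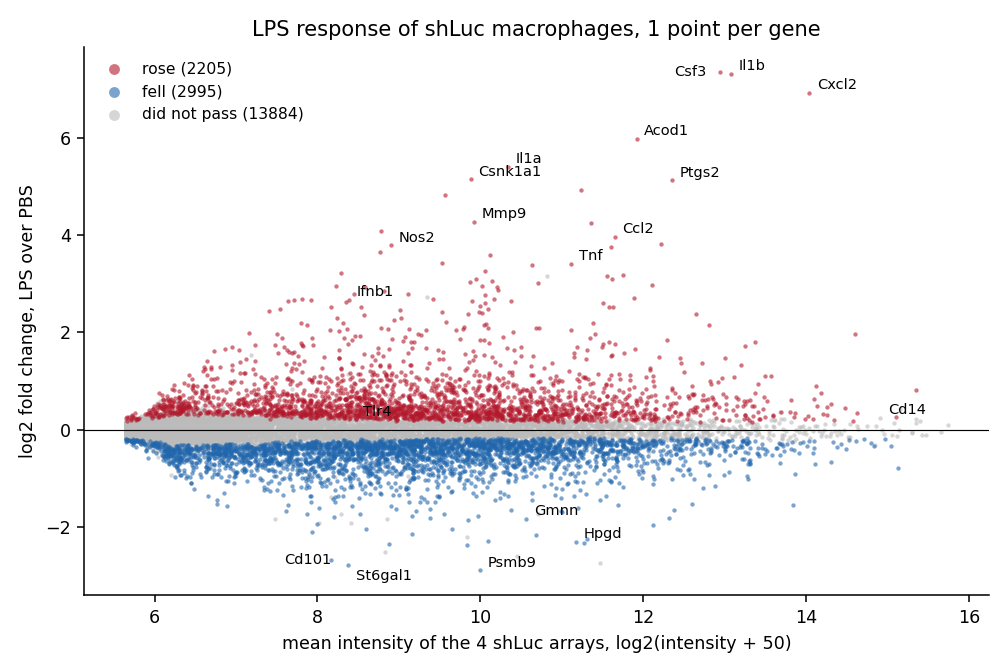
Log2 fold change, shLuc LPS 6 h over shLuc PBS, against the mean log2(intensity + 50) of the 4 shLuc arrays, with 1 point per gene, red for genes that rose, blue for genes that fell and grey for genes that did not pass. Rises extended past 7, whereas no fall that passed reached 3 on this scale, in which the offset understates falls to a dim level.

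The 3 steepest rises were those of Csf3, Il1b and Cxcl2, which encode secreted proteins. Csf3, the granulocyte growth factor G-CSF, measured 15394 and 15950 in the LPS arrays, against 42.5 and 49.1 in the PBS arrays. Its log2 fold change was 7.36 ± 0.058 (SE, adjusted p = 3.1e-14), and since it was dim with PBS the fold is given as at least 313. Il1b, the precursor of interleukin-1 beta, measured 17391 and 16857 with LPS, against 60.3 and 55.1 with PBS, a 297-fold difference (log2 7.32 ± 0.054). Cxcl2, a neutrophil-attracting chemokine, was already above the dim level with PBS at 225 and 220, and stood at 32851 and 33856 with LPS, 150-fold higher. In each of these 3 genes the gap between the groups was far larger than the spread within them.

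Acod1, the enzyme that makes itaconate, was 107-fold higher, at 8117 and 7036 with LPS against 78.4 and 63.5 with PBS. Il1a, interleukin-1 alpha, was at least 49.5-fold higher (2374 and 2576 with LPS, 11.6 and 7.13 with PBS). Ptgs2, the inducible cyclooxygenase COX-2, was 42.1-fold higher, with 10619 and 9690 in the LPS arrays against 249 and 233 in the PBS arrays. Further down the same order came Socs3, a brake on cytokine receptor signalling (44.7-fold), and Csf2, the growth factor GM-CSF (at least 28.4-fold). Mmp9, a secreted gelatinase, measured 1789 and 1805 with LPS against 52.5 and 39.1 with PBS, where 1 of the 2 PBS arrays was dim (log2 fold change 4.27). The remaining genes among the 25 largest rises were Bcl6b, Lif, Ccl2, Phlda1, Nos2, Plaur, Il13ra2, Nfkbiz, Tnfrsf1b, Tnf, Plk2, Id3, Myc, Slc15a3 and Gpr84, with log2 fold changes between 4.25 (Bcl6b) and 3.16 (Gpr84).

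The sixth of these rises rested on the PBS arrays. Csnk1a1, a casein kinase that is made in most cells, measured 1853 and 1720 with LPS but -1 and 4.38 in both shLuc PBS arrays, while the 4 arrays of the shDab2 line gave between 2170 and 2425 with either treatment. It has a single probe, and a check by another probe was therefore not possible.

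**Figure D2:**
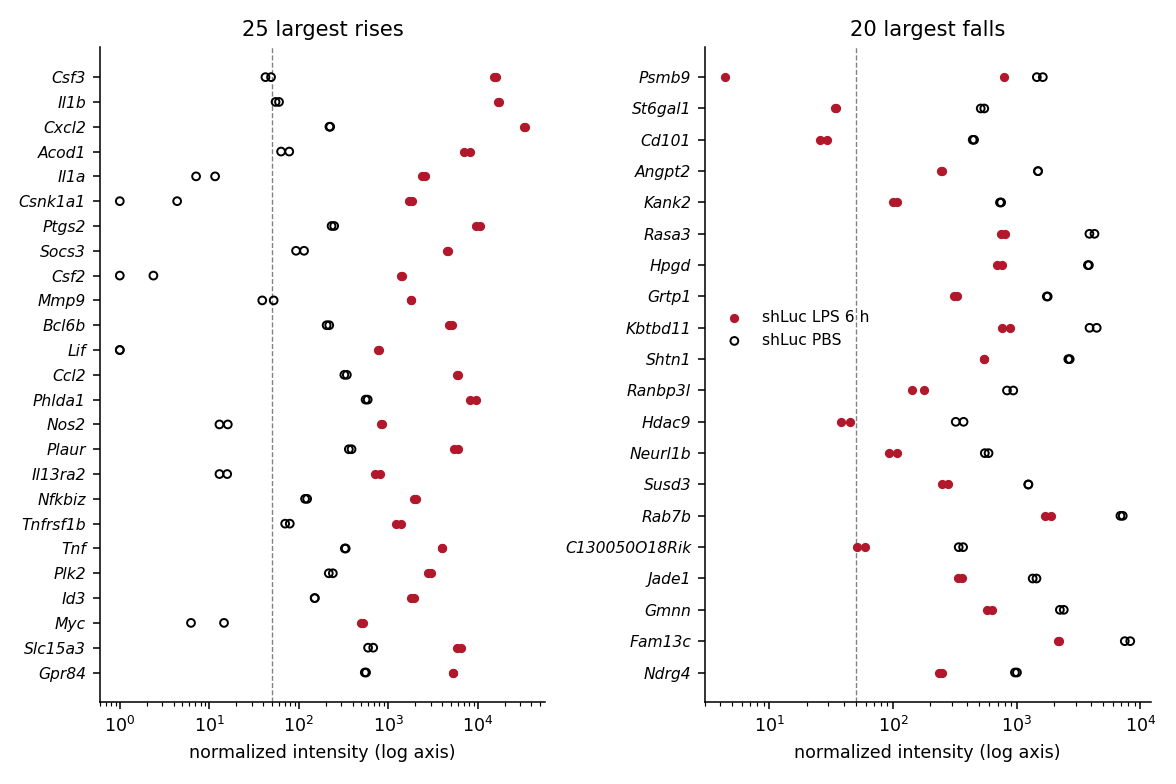
Normalized intensity on each shLuc array (log axis) for the 25 steepest rises and the 20 steepest falls, with filled red points for the 2 LPS arrays and open black points for the 2 PBS arrays. Values under 1 are drawn at 1 and the dashed line marks the dim level of 50. Genes were picked for arrays that do not overlap, so the LPS points lie to one side of the PBS points in every gene. Only Psmb9 shows LPS arrays far apart, at 783 and 4.38.

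Among cytokines 18 of 29 measured genes rose, 0 fell and 11 did not pass, with a median log2 fold change of 0.69, against 0.00 over all genes. For this and every later list, the shares over all genes were 11.6% that rose and 15.7% that fell. Those shares include the 9077 of 19084 genes dim in both groups, and most lists held a smaller part of such genes. A list count above these shares is therefore not by itself a trait of the list. Tnf, the tumour necrosis factor, was 12.1-fold higher, at 3980 and 4019 with LPS against 328 and 335 with PBS (log2 3.41 ± 0.081, adjusted p = 2.1e-10). Lif, a cytokine of the interleukin-6 family, measured 776 and 784 with LPS against -2 and 0 with PBS, at least 15.6-fold higher. Il1rn, the soluble antagonist of the interleukin-1 receptor, rose as Il1a and Il1b did (660 and 600 with LPS, 39.4 and 39.1 with PBS, at least 12.6-fold). Osm, Il27, Ebi3, Tgfb1, Ltb and Tnfsf15 also rose past 1.

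Among interleukins known from LPS-treated macrophages, Il6 and Il12b were dim in both groups. Il6, a cytokine that signals acute inflammation, rose in the test by 0.93 on the log2 scale, yet at 49.8 and 48.6 with LPS and 3.38 and 1 with PBS it was dim in both groups. Il12b, the shared subunit of interleukins 12 and 23, was dim throughout, at 6.88 and 11.5 with LPS and 3.38 and 5.38 with PBS. Il10, an anti-inflammatory cytokine, had LPS arrays of 83.4 and 30.9 on either side of the PBS arrays of 44.4 and 51.9, and did not pass (adjusted p = 0.83). Il23a, the other subunit of interleukin-23, rose to 147 and 160 with LPS, against 73.3 and 78.1 with PBS.

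Of 20 chemokines 14 rose and 0 fell, with a median of 0.77. Ccl2, which attracts monocytes, was 17.9-fold higher (6076 and 5913 with LPS, 324 and 345 with PBS). Ccl7, which binds the same receptor, was at least 6.75-fold higher, with 337 and 338 in the LPS arrays against 11.6 and 8.38 in the PBS arrays. Cxcl10, which attracts T cells, was 6.40-fold higher (1856 and 1745 with LPS, 270 and 293 with PBS), and Ccl5, another T-cell chemokine, 2.63-fold higher (301 and 275 with LPS, 100 and 119 with PBS).

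Ccl3 and Ccl4, chemokines that attract monocytes, were bright without LPS. Ccl4 measured 40716 and 38232 with LPS against 10079 and 9900 with PBS, 3.95-fold higher. Ccl3 measured 65469 and 41384 with LPS against 29923 and 29601 with PBS, where the higher LPS value lay at the top of the scanner's range. Cxcl1 and Ccl17 were dim in both groups and Cxcl9 stayed between 48.6 and 57.1 on the 4 arrays.

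Receptors for these ligands were less uniform. Of 16 chemokine and chemoattractant receptors 4 rose and 2 fell, and of 24 cytokine receptors 8 rose and 4 fell, with medians of 0.07 and 0.06. Without normalization the cytokine receptors came to 6 higher and 6 lower. C3ar1, the receptor of complement C3a, was 10.3-fold higher, at 915 and 920 with LPS against 84.4 and 93.4 with PBS. Ccrl2, which presents chemerin, was 4.64-fold higher, while Cx3cr1, the fractalkine receptor, fell to 1967 and 2003 with LPS, against 3304 and 3496 with PBS. Tnfrsf1b, the inducible TNF receptor, was 17.4-fold higher (1232 and 1386 with LPS, 79.5 and 70.6 with PBS). Il6ra, the ligand-binding chain for interleukin-6, fell by 1.12 on the log2 scale and Csf1r, the receptor of the macrophage growth factor, by 0.44.

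**Figure D3:**
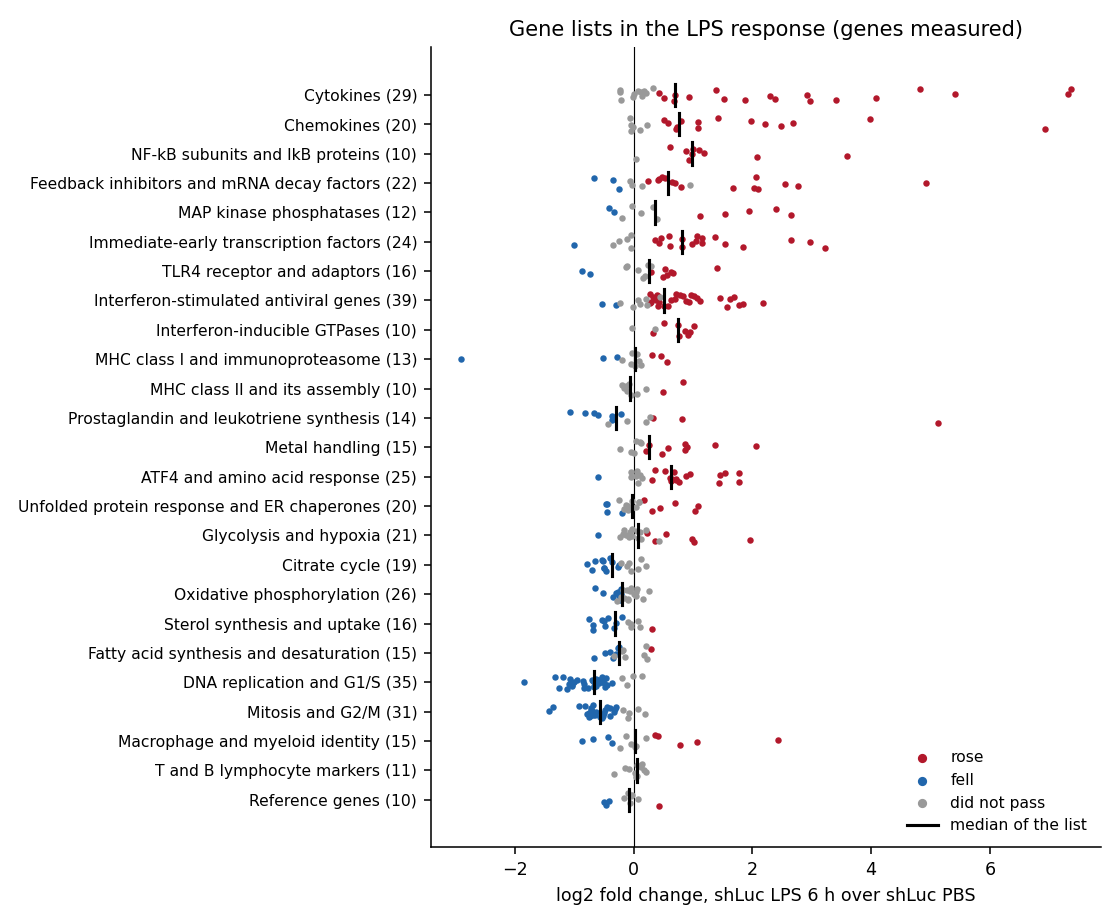
Log2 fold change, shLuc LPS 6 h over shLuc PBS, of every measured member of 25 gene lists, with red, blue and grey points for members that rose, fell or did not pass and a black bar at the list's median. The lists of cytokines, chemokines and NF-kB proteins lie to the right of 0 and those of DNA replication and mitosis to the left.

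Genes of the LPS receptor itself and of the proteins after it were compared. Of 16 genes of the TLR4 receptor and its adaptors 7 rose and 2 fell, with a median of 0.27, and without normalization 6 were higher and 4 lower. Tlr4 itself measured 322 and 336 with LPS against 273 and 288 with PBS, and did not pass (log2 0.20, adjusted p = 0.057). Cd14, its co-receptor, gave 51011 and 19250 with LPS, on either side of 25762 and 27249 with PBS, so that the LPS arrays differed more from each other than the groups did (adjusted p = 0.68). Ly96, which encodes MD-2, was 1.57-fold higher. Irak2, a kinase that sustains MyD88 signalling, was 2.78-fold higher (1575 and 1707 with LPS, 576 and 605 with PBS), and Ticam1, which encodes TRIF, 1.64-fold higher. Ticam2, which encodes the partner adaptor TRAM, fell to 179 and 188 with LPS, against 355 and 317 with PBS, as did Ly86, the partner of the TLR4 relative CD180 (log2 fold change -0.87).

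Of 12 genes of other Toll-like receptors 5 rose and 1 fell. Tlr1, which pairs with TLR2 on bacterial lipopeptides, was 2.17-fold higher (1074 and 1126 with LPS, 475 and 538 with PBS), Tlr2 1.75-fold higher and Tlr3, a sensor of double-stranded RNA, 1.96-fold higher. Tlr13, which reads bacterial ribosomal RNA in mice, fell to 187 and 179 with LPS, against 462 and 438 with PBS. Among 21 kinases between receptor and nucleus 9 rose and 4 fell, and without normalization 6 were higher and 6 lower. Ikbke, the inducible relative of TBK1, stood apart from the others at 2921 and 2967 with LPS against 317 and 319 with PBS (9.26-fold), whereas Tbk1 itself rose by 0.21 on the log2 scale.

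NF-kB proteins and their inhibitors rose together, 9 of 10 genes with a median of 0.99. Nfkbiz, a nuclear IkB that NF-kB target genes need for later induction, was 16.6-fold higher (1954 and 2067 with LPS, 124 and 118 with PBS). Rel, the c-Rel subunit, was 5.47-fold higher, at 698 and 712 with LPS against 132 and 126 with PBS. Nfkbia, the classical inhibitor IkB-alpha, was 2.15-fold higher, at 16956 and 14437 with LPS against 6862 and 7696 with PBS. Rela, the p65 subunit, was the member that did not pass, with 1002 and 930 in the LPS arrays against 953 and 919 in the PBS arrays.

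Of 22 feedback inhibitors and mRNA decay factors 15 rose and 3 fell, with a median of 0.59, and without normalization 12 were higher and 5 lower. Socs3 measured 4555 and 4698 with LPS against 93.4 and 115 with PBS. Tnfaip3, the ubiquitin-editing enzyme A20, was 6.78-fold higher, at 1710 and 1691 with LPS against 252 and 250 with PBS, and Traf1, an adaptor of TNF receptors, 8.12-fold higher. Zfp36, which directs the decay of Tnf mRNA, and Zc3h12a, the ribonuclease regnase-1, were 4.72-fold and 6.29-fold higher. Cyld, another deubiquitinase, fell to 40.6 and 36.3 with LPS, against 98 and 84 with PBS. Tnip1, a partner of A20, gave 1080 and 4079 with LPS against 1035 and 1092 with PBS and did not pass.

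MAP kinase phosphatases divided, with 5 of 12 genes higher and 2 lower. Dusp5, at 317 and 310 with LPS against 7.88 and 7.13 with PBS, was at least 6.26-fold higher, Dusp16 6.05-fold, Dusp2 4.57-fold and Dusp4 3.16-fold. Dusp1, known as an early response phosphatase, had 97.6 and 73.8 in the LPS arrays against 91.1 and 85.1 in the PBS arrays and did not pass.

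Among 24 immediate-early transcription factors 18 rose and 1 fell, with a median of 0.81, and without normalization 15 were higher and 4 lower. Myc, a driver of growth, was at least 10.3-fold higher, at 502 and 527 with LPS against 14.6 and 6.25 with PBS. Ier3, a stress-response protein, was 8.23-fold higher (7598 and 7947 with LPS, 940 and 948 with PBS), Fosl1, the AP-1 subunit FRA-1, 7.57-fold higher, and Maff, a small Maf protein, 4.86-fold higher. Junb and Egr1 rose by 1.54 and 1.37 on the log2 scale. Fos, known for a transient early peak, had 1260 and 1245 with LPS against 1290 and 1416 with PBS and did not pass at this time. Klf4, a zinc-finger factor of monocytes, fell to 119 and 130 with LPS, against 298 and 302 with PBS.

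Of 22 myeloid transcription factors 10 rose and 4 fell. Id3 and Id1, which block basic helix-loop-helix proteins, were 12.5-fold and 4.08-fold higher, with Id3 at 1954 and 1815 under LPS against 152 and 151 under PBS. Ets2, an ETS factor, was 2.44-fold higher. Nr1d1, the clock repressor REV-ERB-alpha, fell to 29 and 23 with LPS, against 87 and 111 with PBS, and Runx1 fell by 0.53 on the log2 scale. Spi1, which encodes the lineage factor PU.1, changed by 0.03 and did not pass.

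The interferon arm of the response involved most of the measured target genes. Ifnb1, interferon-beta, measured 541 and 520 with LPS against 43.5 and 37.9 with PBS, at least 10.6-fold higher (log2 2.68, adjusted p = 6.2e-10). Of 15 genes of the list of interferon regulatory factors and STATs, which holds Ifnb1, 7 rose and 1 fell. Irf8, a factor of macrophage identity, was 2.53-fold higher at 687 and 664 with LPS against 260 and 274 with PBS, Stat2 1.73-fold higher, and Irf7 and Irf9 rose by 0.47 and 0.46 on the log2 scale. Irf3, which is activated by phosphorylation, changed by -0.05 and did not pass.

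Of 39 interferon-stimulated antiviral genes 30 rose and 2 fell, with a median of 0.51. Rsad2, which encodes viperin, was 5.02-fold higher, at 1743 and 1691 with LPS against 341 and 343 with PBS. Ifit1, which binds foreign RNA caps, was 3.72-fold higher (844 and 801 with LPS, 216 and 226 with PBS), Isg15, a ubiquitin-like modifier, 2.81-fold higher, and Slfn2 and Slfn4, Schlafen proteins, 3.63-fold and 3.49-fold higher. Samhd1, which depletes deoxynucleotides, and Trex1, a DNA exonuclease, were the members that fell, by 0.53 and 0.29 on the log2 scale. Interferon-inducible GTPases, which attack pathogen vacuoles, followed with 8 of 10 higher and 0 lower, a median of 0.76, and folds of 2.33 for Gbp3, 1.98 for Igtp and 1.94 for Irgm1.

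Of 13 genes of MHC class I and the immunoproteasome 3 rose and 3 fell, with a median of 0.02, and without normalization 2 were higher and 5 lower. Tap1, a subunit of the peptide transporter, was 1.49-fold higher and B2m, the class I light chain, did not pass (log2 fold change -0.03). Psmb8, a catalytic subunit of the immunoproteasome, fell to 1382 and 1566 with LPS, against 1979 and 2262 with PBS. Its partner Psmb9 had the lowest log2 fold change of all genes that fell, -2.90, but this came from LPS arrays of 783 and 4.38 against PBS arrays of 1628 and 1456 (adjusted p = 0.03), and without LPS replicate 2 the Psmb9 log2 fold change was -0.93. Without PBS replicate 1 or 2 Psmb9 missed the threshold (log2 fold change -2.82 and -2.98, adjusted p = 0.13 and 0.1).

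Of 10 genes of MHC class II and its assembly 2 rose and 6 were dim in both groups. Cd74, the invariant chain, was 1.86-fold higher at 977 and 991 with LPS against 546 and 514 with PBS. Costimulation and adhesion genes rose in 8 of 17 cases and fell in 2. Cd69, an early activation antigen, was at least 7.38-fold higher (347 and 393 with LPS, 18 and 14.4 with PBS), Icosl, the ligand of the T-cell receptor ICOS, 5.20-fold, and Icam1, an adhesion molecule, 1.99-fold higher.

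Acod1 and Nos2 led the enzymes that make small effector molecules. Of 9 genes of itaconate, nitric oxide and arginine 5 rose and 1 fell. Nos2, the inducible nitric oxide synthase, was at least 16.9-fold higher, at 849 and 840 with LPS against 16.1 and 13 with PBS. Gch1, which starts the synthesis of its cofactor tetrahydrobiopterin, was 3.05-fold higher, while Spr, a later enzyme of the same pathway, fell to 1367 and 1453 with LPS, against 1901 and 1838 with PBS. Arg1, the arginase of alternative activation, was dim and did not pass, and the mitochondrial Arg2 was at least 1.79-fold higher.

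Of 14 enzymes of prostaglandin and leukotriene synthesis 3 rose and 7 fell, with a median of -0.29. Ptgs2 and Ptges, the inducible synthase of prostaglandin E2, rose, Ptges to 70.7 and 73.8 with LPS, against 19.8 on each PBS array. Among the members that fell, Alox5, which encodes 5-lipoxygenase, measured 226 and 224 with LPS against 533 and 528 with PBS, its helper Alox5ap 4182 and 4355 with LPS against 7308 and 7908 with PBS, and Ltc4s, leukotriene C4 synthase, 218 and 195 with LPS against 316 and 361 with PBS. Hpgds, the prostaglandin D2 synthase of blood cells, fell by 0.67 on the log2 scale.

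Host-defence and acute-phase genes rose in 10 of 24 cases and fell in 2. Clec4e, the lectin receptor Mincle, was 8.74-fold higher (2042 and 2050 with LPS, 210 and 261 with PBS), and Lcn2, which binds bacterial iron carriers, at least 2.54-fold higher. Trem2, a lipid receptor that restrains inflammation, fell to 2873 and 2647 with LPS, against 6102 and 6076 with PBS. Among 20 genes of matrix proteases, their inhibitors and the plasminogen system 6 rose and 0 fell. Plaur, the urokinase receptor, was 15.3-fold higher (6054 and 5470 with LPS, 390 and 363 with PBS), and Timp1, an inhibitor of metalloproteinases, at least 4.78-fold higher.

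Of 15 metal-handling genes 9 rose and 0 fell. Slc11a1, the phagosomal metal pump NRAMP1, was 4.74-fold higher (1239 and 1509 with LPS, 272 and 307 with PBS). Mt2, a metallothionein, was 2.62-fold higher and Slc11a2, the relative of Slc11a1 in endosomes, 1.92-fold higher. Of 17 genes of the phagocyte oxidase and antioxidants 7 rose and 3 fell. Slc7a11, the cystine importer, was 3.69-fold higher (1633 and 1696 with LPS, 460 and 442 with PBS) and Sod2, the mitochondrial superoxide dismutase, 2.25-fold higher, whereas Gpx1, a glutathione peroxidase, fell to 3816 and 3745 with LPS, against 6054 and 5829 with PBS.

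The 20 largest falls included surface proteins, enzymes and signalling proteins. St6gal1, which adds terminal sialic acid to glycoproteins, was lower by at least 10.6-fold, at 34.3 and 33.6 with LPS against 512 and 547 with PBS (log2 fold change -2.79 ± 0.15, adjusted p = 1.5e-07). Cd101, an inhibitory surface protein, was lower by at least 8.93-fold (25.9 and 29.3 with LPS, 441 and 452 with PBS). Hpgd, the enzyme that breaks down prostaglandins, was 5.23-fold lower, with 757 and 698 in the LPS arrays against 3839 and 3770 in the PBS arrays, in the same arrays in which Ptgs2 was higher.

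Angpt2, an antagonist of the endothelial receptor TIE2, was 6.01-fold lower (246 and 250 with LPS, 1488 and 1489 with PBS). Rasa3, which inactivates RAS and RAP proteins, was 5.28-fold lower, at 742 and 799 with LPS against 4264 and 3877 with PBS, and Kank2, a regulator of the actin skeleton, 7.16-fold lower. Rab7b, a GTPase of late endosomes, was 3.96-fold lower, at 1887 and 1684 with LPS against 6910 and 7216 with PBS. The others were Grtp1, Kbtbd11, Shtn1, Ranbp3l, Hdac9, Neurl1b, Susd3, C130050O18Rik, Jade1, Gmnn, Fam13c and Ndrg4, with log2 fold changes from -2.30 (Grtp1) to -1.82 (Ndrg4).

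Most measured genes of cell division fell. Of 35 genes of DNA replication and the entry to S phase 31 fell and 0 rose, with a median of -0.67, and of 31 genes of mitosis 26 fell and 0 rose, with a median of -0.57. With a common 75th percentile 1 replication gene was called higher. Gmnn, the licensing inhibitor geminin, fell to 637 and 580 with LPS, against 2405 and 2236 with PBS (3.82-fold lower). Ccne2 and Ccne1, the E-type cyclins that start S phase, measured 191 and 212, and 236 and 245, with LPS, against 623 and 540, and 583 and 646, with PBS. Mcm6, a subunit of the replicative helicase, measured 1441 and 1609 with LPS against 3100 and 3490 with PBS.

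For mitosis, Foxm1, the transcription factor of G2 genes, fell to 314 and 274 with LPS, against 848 and 894 with PBS. Ccna2, cyclin A, measured 991 and 1086 with LPS against 2638 and 2833 with PBS, and Aurkb, a kinase of chromosome attachment, 2073 and 1916 with LPS against 3775 and 3832 with PBS. Cdk1, the mitotic kinase, was dim in both groups and did not pass (log2 fold change 0.07). Beside them Cdkn1a, the inhibitor p21, rose to 10128 and 10271 with LPS, against 5185 and 5138 with PBS.

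The list of p53 targets, which holds Cdkn1a, had 6 of 18 genes higher and 6 lower. Plk2, a kinase induced by stress, was 12.5-fold higher, and the stress sensors Gadd45a and Gadd45b rose by 3.10 and 2.61 on the log2 scale, while Sesn1, an antioxidant regulator, fell by 1.33 on the log2 scale. Of 15 apoptosis regulators 7 rose and 2 fell. Fas, a death receptor, was at least 11.2-fold higher (558 and 563 with LPS, 33.9 and 42.1 with PBS), and the protective genes Bcl2l1 and Cflar were 4.70-fold and 2.27-fold higher, whereas Bcl2 fell by 0.54.

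In metabolism, genes of the amino acid response under ATF4 rose, 17 of 25 with 1 lower and a median of 0.63. Chac1, which degrades glutathione, was 3.50-fold higher at 4468 and 4458 with LPS against 1226 and 1324 with PBS, Cth, which makes cysteine, 3.10-fold, and Trib3, a pseudokinase, 2.89-fold higher. Atf4 itself, regulated mainly at translation, did not pass (log2 0.05), and Psat1, an enzyme of serine synthesis, fell by 0.60. The unfolded protein response had 6 of 20 genes higher and 4 lower, with a median of -0.03, and without normalization 2 higher and 5 lower. Without LPS replicate 2, and likewise without PBS replicate 2, 3 of these genes were higher and 3 lower. Herpud1, which helps to degrade proteins of the endoplasmic reticulum, was 2.13-fold higher, and the chaperone Hspa5 changed by 0.04 and did not pass.

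Genes that make lipids fell by small amounts. Of 16 genes of sterol synthesis and uptake 10 fell and 1 rose, with a median of -0.31, and of 15 genes of fatty acid synthesis 7 fell and 1 rose. With a common 75th percentile the fatty acid genes came to 3 lower and 2 higher, and without PBS replicate 2 to 4 lower and 1 higher. Fdft1, squalene synthase, measured 1221 and 1003 with LPS against 2134 and 1680 with PBS, and Scd1, a desaturase, 5520 and 5152 with LPS against 8731 and 8234 with PBS. In the list of sterol efflux and lipid scavenging, with 5 of 18 higher and 5 lower, Msr1, a scavenger receptor, was 2.84-fold higher and Fabp4, a fatty acid carrier, at least 8.80-fold higher. Abcg1, a sterol exporter, fell to 248 and 233 with LPS, against 760 and 785 with PBS, and Lipa, the lysosomal lipase, fell by 1.36 on the log2 scale.

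Of 21 genes of glycolysis and hypoxia 6 rose and 1 fell, with a median of 0.07. These came to 9 higher and 1 lower with a common 75th percentile, and to 4 higher and 4 lower without normalization. The glucose transporter Slc2a1 was 4.05-fold higher (4400 and 4157 with LPS, 1178 and 945 with PBS), the lactate exporter Slc16a3 2.06-fold and hexokinase Hk2 1.46-fold higher, while Ldha, Pkm, Pgk1 and Hif1a did not pass, with log2 fold changes from -0.18 (Ldha) to 0.13 (Pkm). Of 19 genes of the citrate cycle 12 fell and 0 rose, with a median of -0.37. With a common 75th percentile these came to 7 lower and 2 higher. Idh2, a mitochondrial isocitrate dehydrogenase, measured 3372 and 3423 with LPS against 5281 and 5444 with PBS. Sdhd, a membrane anchor of succinate dehydrogenase, measured 5281 and 5506 with LPS against 8907 and 8731 with PBS, and the catalytic subunit Sdha fell by 0.50 on the log2 scale.

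Oxidative phosphorylation genes fell in 11 of 26 cases, with a median of -0.19, but under a common 75th percentile 2 were lower and 2 higher, whereas under cyclic loess 6 and without normalization 18 were lower with 0 higher. Leaving out LPS replicate 2 gave 6 lower, and leaving out PBS replicates 1 and 2 gave 5 and 6 lower. Of 14 cytosolic ribosomal proteins 6 fell and 0 rose, and of 23 genes of ribosome biogenesis 8 rose and 3 fell. The biogenesis genes came to 12 higher and 1 lower with a common 75th percentile, and to 7 higher and 6 lower without normalization. Rrp9, a component of the machinery that processes ribosomal RNA, was 1.69-fold higher (821 and 839 with LPS, 531 and 452 with PBS).

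Of 26 genes of the lysosome 7 rose and 8 fell, and under a common 75th percentile these came to 10 higher and 3 lower. Without LPS replicate 1, and likewise without PBS replicate 2, 7 lysosomal genes were higher and 5 lower. Tfe3, a transcription factor of lysosomal genes, was 2.17-fold higher (3485 and 3214 with LPS, 1567 and 1518 with PBS), whereas its relative Mitf fell to 616 and 589 with LPS, against 1183 and 1204 with PBS. Of 17 autophagy genes 4 rose and 5 fell, and without normalization 1 was higher and 7 lower. Since 0 of these 17 and 1 of the 26 lysosomal genes were dim in both groups, their counts are not comparable with the shares of all genes. The cargo receptor Sqstm1 was 2.54-fold higher (13448 and 13440 with LPS, 5486 and 5104 with PBS). Map1lc3b, an LC3 protein of the autophagosome membrane, had a log2 fold change of -0.56. Of 20 genes of clathrin-mediated uptake 3 rose and 3 fell, shares near those of all genes (11.6% and 15.7%). Dim in both groups were 1 of these 20 but 9077 of the 19084 genes, so these shares do not compare like with like. The uptake genes came to 5 higher and 2 lower with a common 75th percentile, and to 0 higher and 6 lower without normalization. Dab2, the adaptor that the study knocked down in the other line, measured 52.3 and 72.4 with LPS against 91.1 and 88.1 with PBS and did not pass (log2 fold change -0.32, adjusted p = 0.079).

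Integrins and related surface genes rose in 10 of 18 cases and fell in 3. Itga5, a chain of the fibronectin receptor, was 4.32-fold higher (250 and 295 with LPS, 60.3 and 65.5 with PBS), and Cd82, a tetraspanin, 3.03-fold higher, while Itga4, a chain of the receptor of VCAM-1, fell to 1195 and 1061 with LPS, against 2579 and 2769 with PBS. Enzymes and receptors of sialic acid and glycans were divided at 6 higher and 6 lower of 21. Siglec1, a sialic acid receptor, was 5.13-fold higher, and St8sia4, a polysialyltransferase, fell to 1122 and 1107 with LPS, against 3394 and 3606 with PBS. Among 17 secreted growth and angiogenic factors 7 rose and 2 fell. Pdgfb, a platelet-derived growth factor chain, was 9.19-fold higher at 5708 and 5486 with LPS against 642 and 578 with PBS, Vegfc, a growth factor of lymphatic vessels, 7.39-fold and Vegfa 2.06-fold higher.

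Of 15 genes of macrophage and myeloid identity 5 rose and 4 fell, and 1 was dim in both groups. Without normalization 3 were higher and 5 lower. Cd68 measured 19177 and 19033 with LPS against 20730 and 20994 with PBS. Fcgr2b, the inhibitory Fc receptor, was 6.58-fold higher (1143 and 1257 with LPS, 172 and 193 with PBS), and the activating receptors Fcgr3 and Fcgr1 fell, with log2 fold changes of -0.86 and -0.68. Of 10 osteoclast markers, a fate open to RAW264.7 cells, 3 rose and 1 fell, and without normalization 3 were higher and 3 lower. Dcstamp, a fusion protein, was 3.36-fold higher, whereas Nfatc1, the main osteoclast factor, fell to 188 and 217 with LPS, against 517 and 546 with PBS on its brightest probe, while another of its probes was called higher by 0.29.

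Markers of other cells were near background. Of 11 T and B lymphocyte markers 0 passed and 9 were dim in both groups, with a summed intensity of 199 to 259 with LPS against 199 to 218 with PBS. Neutrophil and mast cell markers summed to 333 to 348 with LPS against 276 to 302 with PBS over 8 genes, of which 0 passed. The 11 fibroblast and epithelial markers summed to 146 to 176 with LPS against 156 to 165 with PBS, 10 of them dim in both groups. Of these 11, 1 (Krt14) rose and 2 (Col1a1 and Col1a2) fell in the test. Without normalization Krt14 missed the threshold of the same test (log2 fold change 0.21, adjusted p = 0.25). With a floor of 50 the log2 fold changes of Col1a1 and Col1a2 were 0, so these calls rested on values under the dim level. Of 10 reference genes 1 rose and 3 fell, and without normalization 1 was higher and 5 lower. Actb, which encodes beta-actin, measured 22429 and 20197 with LPS against 23384 and 21900 with PBS (adjusted p = 0.48).

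Promoters of the changed genes were read for short motifs, from 250 bases before to 50 bases after each RefSeq start of GRCm38.p6, on both strands. Promoters were at hand for 266 of the genes that rose past 1, for 170 of those that fell past 1 and for 14967 of all genes. The genes that rose had 1.37 starts each and those of the whole array 1.23, and a match at any start counted. The NF-kB motif, read as GGG, 3 bases of any kind and TTCC, was found for 12.03% of the genes that rose, 5.88% of those that fell and 6.66% of all genes. The interferon response element, read as TTTC, any 2 bases and TTTC, was found for 7.52% of the genes that rose, 1.77% of those that fell and 3.64% of all. AP-1 motifs (TGANTCA) were found for 11.7%, 5.88% and 7.87% in the same order, and TATA boxes (TATAAA) for 18.1%, 8.82% and 12.6%. Over all 1733 genes with a promoter that rose by any size, AP-1 and TATA motifs were less frequent than over all genes, at 7.44% and 11.1%, and NF-kB and interferon motifs were found for 9.12% and 5.19%.

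Motifs of cell-cycle genes had another distribution. The E2F motif, read as TTT, any base and GCGC, was found for 1.13% of the genes that rose, 5.29% of those that fell and 2.21% of all genes, and the CHR element (TTTGAA) for 13.9%, 15.9% and 16.4%. NRF1 motifs, read as GCGC, any base and TGCGC, were found for 1.88% of the genes that rose, 4.71% of those that fell and 8.02% of all. Over genes that rose or fell by any size NRF1 motifs were more frequent than over all genes, at 10.3% and 11.8%. E2F motifs were found for 2.19% and 3.98% of these. Shares also varied with intensity: the 5000 brightest genes of the shLuc arrays had 13.9% for NRF1, 3.8% for E2F and 8.14% for TATA motifs. Within the lists, NF-kB motifs were found for 5 of 13 chemokines and 5 of 8 NF-kB and IkB genes, interferon response elements for 12 of 29 interferon-stimulated genes, E2F motifs for 11 of 28 replication genes and CHR elements for 17 of 25 mitosis genes. The motifs can overlap, and a match is a description of letters, not a site shown to be bound.

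**Figure D4:**
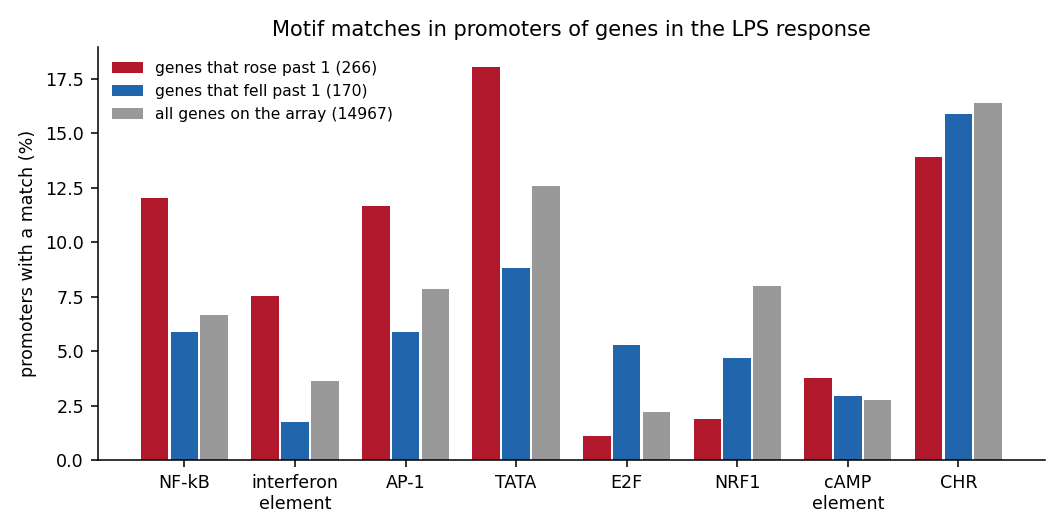
Share of genes with at least 1 match to each motif in a promoter, in percent, for genes that rose past 1 on the log2 scale with LPS (red, 266 genes), genes that fell past 1 (blue, 170) and all genes on the array with a promoter (grey, 14967). NF-kB, interferon element, AP-1 and TATA bars are highest for genes that rose, and E2F bars for genes that fell.

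Parts of 7 promoters are shown because their genes carry the results above: Cxcl2, Cxcl10 and Nfkbia for the NF-kB arm, Cxcl10 and Rsad2 for the interferon arm, Il1b among the steepest rises, and Mcm6 and Ccnb2, a B-type cyclin that fell by 0.72, for the lists of cell division. Capitals mark matches to the motifs named beside each gene, while other matches, such as the AP-1 motifs of Cxcl10 and Rsad2, stay in lower case. All are written 5′ to 3′ on the gene's strand, from RefSeq on GRCm38.p6.
Cxcl2, chr5:90903762-90903870, plus strand, NF-kB motifs: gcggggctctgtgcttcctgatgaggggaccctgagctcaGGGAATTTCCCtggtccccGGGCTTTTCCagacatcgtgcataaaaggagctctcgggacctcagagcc
Cxcl10, chr5:92348944-92349139, minus strand, an interferon response element and then NF-kB motifs: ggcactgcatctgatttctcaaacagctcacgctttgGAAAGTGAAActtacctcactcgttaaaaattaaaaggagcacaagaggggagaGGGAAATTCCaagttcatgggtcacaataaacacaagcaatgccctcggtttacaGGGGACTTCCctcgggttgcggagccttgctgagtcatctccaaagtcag
Nfkbia, chr12:55492627-55492716, minus strand, NF-kB motif: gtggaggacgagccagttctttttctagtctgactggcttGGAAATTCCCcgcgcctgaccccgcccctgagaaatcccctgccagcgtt
Rsad2, chr12:26456523-26456612, minus strand, interferon response element: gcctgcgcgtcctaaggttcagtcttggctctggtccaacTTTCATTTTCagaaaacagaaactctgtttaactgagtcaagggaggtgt
Il1b, chr2:129371125-129371210, minus strand, TATA box: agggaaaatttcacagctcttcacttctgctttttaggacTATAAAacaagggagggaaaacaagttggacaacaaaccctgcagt
Mcm6, chr1:128359705-128359855, minus strand, E2F motifs: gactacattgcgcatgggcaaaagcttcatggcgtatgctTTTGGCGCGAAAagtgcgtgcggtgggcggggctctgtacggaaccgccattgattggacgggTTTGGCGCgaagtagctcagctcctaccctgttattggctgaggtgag
Ccnb2, chr9:70421505-70421761, minus strand, CHR elements: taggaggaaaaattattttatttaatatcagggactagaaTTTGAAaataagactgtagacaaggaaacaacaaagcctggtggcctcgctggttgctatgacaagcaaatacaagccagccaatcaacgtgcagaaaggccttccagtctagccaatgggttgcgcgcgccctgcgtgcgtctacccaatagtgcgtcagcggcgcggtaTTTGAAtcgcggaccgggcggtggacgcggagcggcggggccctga

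The NF-kB motifs of Cxcl2 begin 97, 96 and 78 bases before its start, those of Cxcl10 159 and 104 bases before it with the interferon response element at 213, and that of Nfkbia 29 bases before it. The element of Rsad2 begins 120 bases before the start and the TATA box of Il1b 31 bases before it. Of the genes shown Il1b was 297-fold, Cxcl2 150-fold, Cxcl10 6.40-fold, Rsad2 5.02-fold and Nfkbia 2.15-fold higher, and Mcm6 was 2.16-fold and Ccnb2 1.69-fold lower, so that genes with the same motif differed in the size of their response.

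Neighbouring genes were also examined. In the order of protein-coding genes a single stretch of 3 neighbours changed past 1 in the same direction, Lst1, Ltb and Tnf on chromosome 17 (chr17:35185095-35202007, GRCm38), the cluster of TNF family genes within the MHC. Lst1, a small myeloid membrane protein, was 2.16-fold higher (3116 and 3469 with LPS, 1477 and 1569 with PBS), Ltb, which encodes lymphotoxin beta, 2.93-fold and Tnf 12.1-fold higher. When all annotated genes were placed in order, 0 such stretches remained. Where a changed gene had a second probe with a mean of at least 50, the signs of the probes were compared. The sign was the same for 32 of 32 genes that rose past 1, 31 of them called, and for 27 of 27 that fell, 24 of them called. Among all second probes, dim ones included, it was the same for 45 of 50 genes that rose, 35 of them called. For genes that fell it was the same for 35 of 37, 26 of them called. The second probes without the same sign were thus all under the limit on the mean.

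The difference between the lines in the change with LPS was tested for every gene and passed for 1106 of 19084 (5.8%), 519 higher and 587 lower in shDab2 than in shLuc cells. Of the 352 genes that rose past 1 in shLuc cells 175 differed, 141 with the larger rise in shDab2 cells, and of the 214 that fell past 1 83 differed, 75 with the larger fall in shDab2 cells. Both lines share the array normalization, and each has 2 arrays per treatment.

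Among the 10 largest rises the difference passed for 6. Il1a rose further in shDab2 cells, where its log2 fold change was 7.47, against 5.41 in shLuc cells. Csf2 had 6.47 in shDab2 cells against 4.83 in shLuc cells, Socs3 5.62 against 4.93 and Csf3 7.80 against 7.36. Cxcl2 rose less in shDab2 cells, 5.97 against 6.94 in shLuc cells, from PBS arrays of 593 and 603 in shDab2 cells against 225 and 220 in shLuc cells. Csnk1a1, with shLuc PBS arrays near 0, also differed. The differences of Il1b, Acod1, Ptgs2 and Mmp9 did not pass, with values from -0.21 (Mmp9) to 0.24 (Il1b). Among the 10 largest falls Cd101, Angpt2, Hpgd, Grtp1 and Kbtbd11 fell further in shDab2 cells.

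**Figure D5:**
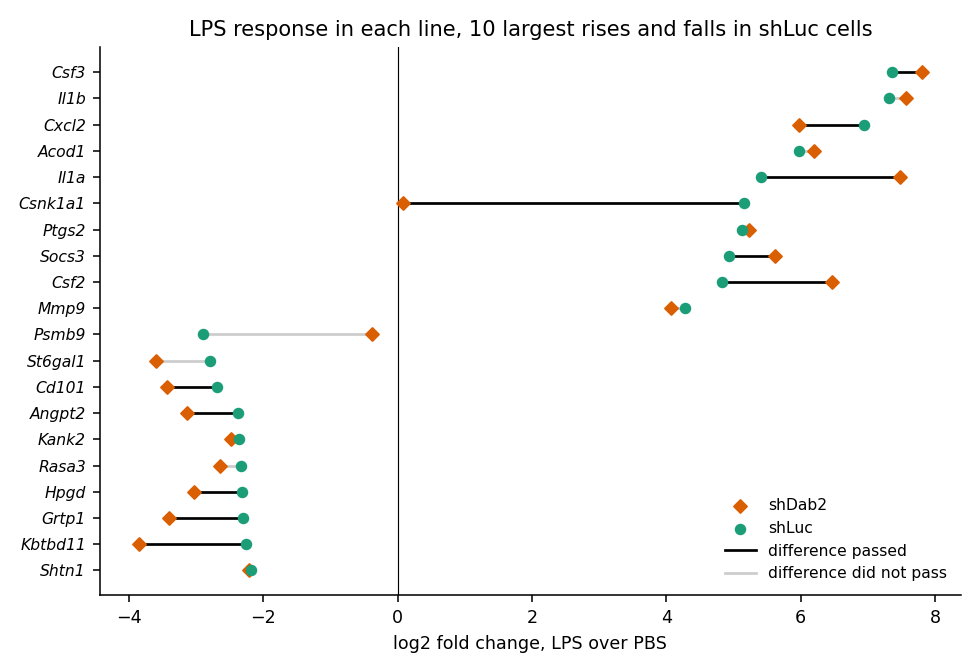
Log2 fold change, LPS over PBS, in shDab2 cells (orange diamonds) and shLuc cells (green circles) for the 10 largest rises and 10 largest falls in shLuc cells, joined by a black line where the difference between the lines passed and a grey line where it did not. Csnk1a1 has the longest line, with 0.08 in shDab2 cells against 5.15 in shLuc cells.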

How the data were processed

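RNA was hybridized in a single colour to 8 mouse OneArray chips, 2 per group, grouped by the sample labels. The deposited values are linear intensities from which the authors had subtracted the background. They were not normalized between arrays, the 75th percentiles running from 209 to 319, and software for this step is not given in the sources used here. A table of means per group was not used. Intensities were quantile-normalized over the 8 arrays and tested as log2(intensity + 50) with limma 3.58.1 in R 4.3.3: a mean for each of 4 groups, an intensity trend in eBayes, 4 residual degrees of freedom and prior degrees of 6.7. Adjusted p-values are Benjamini-Hochberg values over the 26423 probes. This normalization removes any change in total RNA per cell. Fold changes with the offset understate those of dim genes. Folds are ratios of geometric mean intensities. Where both arrays of a group were under 50 they are bounds against 50. Of the probes, 21876 had 1 symbol and 4547 none, giving 19084 genes, and positions come from RefSeq through Entrez IDs. Of 1018 entries in 50 gene lists 911 were measured.

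The members, the lists and the rule for named genes were chosen with earlier results of these data known. The rule names the 25 largest rises and 20 largest falls whose arrays do not overlap, up to 4 called members of a list in its majority direction and 2 in the other, and a set of well-known LPS genes. Other list members named here were chosen after their values were seen. Alternatives were other scalings, offsets, filters, variance settings, a replicate block and the omission of each array. The test was checked on simulated data.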

Additional observations from a re-analysis of the deposited data

Results flagged for a closer look

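The log2 fold change with LPS differed between shDab2 and shLuc cells for 1106 genes in the test of the difference itself. Among the 10 largest rises of shLuc cells the difference, shDab2 minus shLuc, was 2.06 for Il1a, 1.64 for Csf2, 0.694 for Socs3 and 0.445 for Csf3, each a larger rise in shDab2 cells, and -0.967 for Cxcl2, a smaller one. It was -5.07 for Csnk1a1, whose shLuc PBS arrays were the only ones of 8 near 0. Among the 10 largest falls the difference was -0.755 for Cd101, -0.763 for Angpt2, -0.712 for Hpgd, -1.09 for Grtp1 and -1.59 for Kbtbd11, each a larger fall in shDab2 cells. For Kbtbd11 the shDab2 arrays measured 232 and 240 with LPS against 4143 and 4009 with PBS, and the shLuc arrays 891 and 767 with LPS against 4442 and 3886 with PBS. The largest rises and falls were picked by their change in shLuc cells, which the difference subtracts. Groups of 2 arrays allow no test for a single array that stands apart.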

How the results depend on the processing

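The largest changes and the called list members of the naming rule came to 261 genes. Of these, 229 kept their direction and their side of the threshold under each of 19 alternatives that measured them, and 0 changed direction. With dim probes left out 257 of the 261 were measured. Well-known LPS genes outside these, such as Tlr4, and likewise Dab2, were not followed in this way. Without normalization 1312 genes were higher, against 2205, and past 1 244 were higher and 409 lower, against 352 and 214, so that the balance of large changes turned round. In that setting 2151 differed between the lines, against 1106. An offset of 16 gave 397 genes lower past 1, and a floor of 50 gave 349 lower past 1 and 495 that differed between the lines. Values equal on all arrays at that floor were not counted. Leaving out each array in turn gave 1772 to 2291 genes higher, 2341 to 3045 lower, 347 to 357 higher past 1, 213 to 242 lower past 1 and 703 to 986 that differed between the lines, the lowest without the PBS array of shLuc replicate 1. An arm left with 1 array was assumed to vary like the others. Psmb9 missed the threshold under 5 of the alternatives that kept all arrays of the fit (adjusted p from 0.056 to 0.26) and without either shLuc PBS array (0.13 and 0.1). In 10 of 50 lists the count of members called in the list's more frequent direction moved by more than 1.5 times under at least 1 alternative.

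Arrays of the same number did not deviate together (correlations from -0.089 to 0.16). This cannot show whether arrays of the same number shared a culture or a day, which the sources do not state. With the replicate number as a block 2157 genes were higher and 2937 lower. The block changed the calls of Stat5b, Wipi1 and Dnm2 among the 261 genes followed above and no other. Dim probes limit what can be seen, since 9077 genes were under 50 in both shLuc groups.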

Other observations

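Of the 4547 probes without a gene symbol 209 rose and 192 fell with LPS in shLuc cells, 17 and 9 of them past 1. The largest rise, probe PH_mM_0015132, measured 7294 and 6657 with LPS against 57.9 and 71.5 with PBS. In shDab2 cells it measured 13448 and 15882 with LPS against 184 and 154 with PBS. Probe PH_mM_0000973 measured 1020 and 964 with LPS against 78.4 and 75.4 with PBS in shLuc cells. Among falls, PH_mM_0009305 measured 13.3 and 10.3 with LPS against 181 and 191 with PBS.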
